A study of Mus musculus with 12 samples.

Results

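Described here are 10 genes of the unfolded protein response in the mouse amygdala: Hspa5, Ddit3, Atf4, Xbp1, Herpud1, Sdf2l1, Hyou1, Pdia4, Dnajb9 and Calr. They were taken as every probe whose gene symbol in the probe annotation is one of these names, out of 19057 genes with a probe. All 10 have a probe, with 15 probes in all, and 14 of these, covering each of the 10 genes, were detected widely enough to be tested. Each gene is represented by its brightest tested probe, and the other probes are given beside it.

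The study profiled total RNA from 1 mm punches of amygdala, from both sides of the brain, on 1-colour Illumina bead arrays. All mice were male C57Bl/6J and 10 weeks old. Its 3 groups of 4 arrays are immobilization plus fear conditioning with tissue taken 2 h after conditioning (IMO_FC), fear conditioning alone with tissue taken 2 h after it (FC), and home-caged mice (HC). Fear conditioning teaches an animal to fear a cue paired with an aversive event, and immobilization is a stressor. The series' design text speaks of fear expression and extinction where the sample labels give fear conditioning, and neither says when or how long mice were immobilized. Since no label ties the replicates to different animals, p-values reflect the spread among these samples alone, which may be technical.

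The unfolded protein response is the program by which a cell answers a load of misfolded protein in the endoplasmic reticulum (ER). The sensor IRE1 splices the mRNA of Xbp1 into the form that encodes an active transcription factor, the sensor PERK slows translation and favours synthesis of ATF4, and ATF6 is cut in the Golgi to release a transcription factor. Their targets are chaperones, folding enzymes and parts of the machinery that returns misfolded protein to the cytosol for degradation. Secretory cells, and neurons making peptides and receptors, use these genes at baseline as well.

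Much of this response is known to run through short promoter elements, so the promoter windows of the genes were read for them, from RefSeq sequence on build GRCm38.p6 that reaches from well before each gene's start to just after it, 300 bases in all. Of the 10 genes, 9 had a window, and Hyou1 had none. The ER stress response element was searched as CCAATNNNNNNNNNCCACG on both strands. It was present in 39 of 32851 windows (0.119%), among them those of Hspa5 and Calr. The window of Hspa5, which encodes the chaperone BiP, lies on the plus strand of chr2:34771840-34772139 and is shown whole because it holds this element at positions -65 to -47, with the element's fixed letters in capitals and the base before the gene's start counted as -1.
Hspa5 window: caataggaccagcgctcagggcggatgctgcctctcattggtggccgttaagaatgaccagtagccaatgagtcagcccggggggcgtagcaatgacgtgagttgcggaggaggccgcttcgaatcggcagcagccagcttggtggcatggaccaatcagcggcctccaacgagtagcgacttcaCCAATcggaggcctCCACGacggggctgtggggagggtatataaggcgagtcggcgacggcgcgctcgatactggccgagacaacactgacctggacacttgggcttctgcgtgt

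In the same capitals, the element is set out below for both of these genes and for the other ER folding genes whose array values come later, each read along the element's own strand. Calr encodes calreticulin, Hsp90b1 the chaperone GRP94, Canx calnexin, and Pdia6 a disulfide isomerase. The coordinates are chr2:34772025-34772043 (plus strand) for Hspa5, chr8:84847075-84847093 (plus strand, opposite to the gene) for Calr, chr11:50325800-50325818 (minus strand) for Canx and chr12:17266491-17266509 (plus strand) for Pdia6. The Hsp90b1 copy shown, one of a pair in its window, is at chr10:86705638-86705656 (minus strand).
Hspa5: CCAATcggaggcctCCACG
Calr: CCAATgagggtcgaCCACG
Hsp90b1: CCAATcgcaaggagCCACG
Canx: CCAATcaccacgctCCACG
Pdia6: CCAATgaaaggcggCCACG

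Herpud1, which encodes an ER membrane protein of the degradation machinery, held a pair of other elements. The ER stress response element II, searched as ATTGGNCCACG on both strands, was in 12 windows (0.0365%) and lay at positions -52 to -42 of Herpud1, at chr8:94386377-94386387 on the plus strand. Its letters ATTGG are the reverse complement of the CCAAT of the first element. The composite element read by ATF4, searched as TGATGNAA on both strands, was in 1304 windows (3.97%) and lay at positions -112 to -105 of Herpud1, at chr8:94386317-94386324 on the minus strand. Another element, TGACGTGG, which XBP1 is known to bind, was in 222 windows (0.676%) and in none of the 9. A match describes letters in a window and no match says only that these letters are not there.
Herpud1, element II: ATTGGgCCACG
Herpud1, ATF4 composite: TGATGcAA

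On the arrays, the 10 genes gave no called difference between any of the groups. Of the 12 arrays, 10 detected between 38.97% and 50.7% of probes, while FC 1 and FC 3 detected 11.69% and 15.94%, so the values below come from the other 10 arrays (4 IMO_FC, 2 FC, 4 HC) unless all 12 are named. Among those 10, IMO_FC 1 stood apart most, with a median Spearman rho of 0.788 with the others and the lowest value of all arrays for 31.1% of tested probes. FC 2 came next, with 14.3%. Amygdala excitatory neuron markers, all 8 tested and 7 detected on every one of the 10 arrays, summed to 3287 on IMO_FC 1 on the linear normalized scale and to between 5851 and 7973 on the other 9. Differences of the 10 genes between IMO_FC and HC are therefore given with and without IMO_FC 1.

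Values below are background-corrected, quantile-normalized log2 signals. With limma and Benjamini-Hochberg adjustment over all 23260 tested probes, 0 probes (0%) were called at an adjusted p under 0.05 in IMO_FC against HC, FC against HC or IMO_FC against FC. At an unadjusted p under 0.05 there were 737 (3.17%), 805 (3.46%) and 813 (3.5%) probes in these comparisons. Of the 10 genes, by their brightest probes, 0, 1 and 0 were under that level, the single one being Sdf2l1 in FC against HC. A second, dimmer probe of Atf4 was also under it in FC against HC (unadjusted limma p 0.0171). In bulk tissue, fewer cells of a type and less RNA per cell cannot be told apart.

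**Figure D1:**
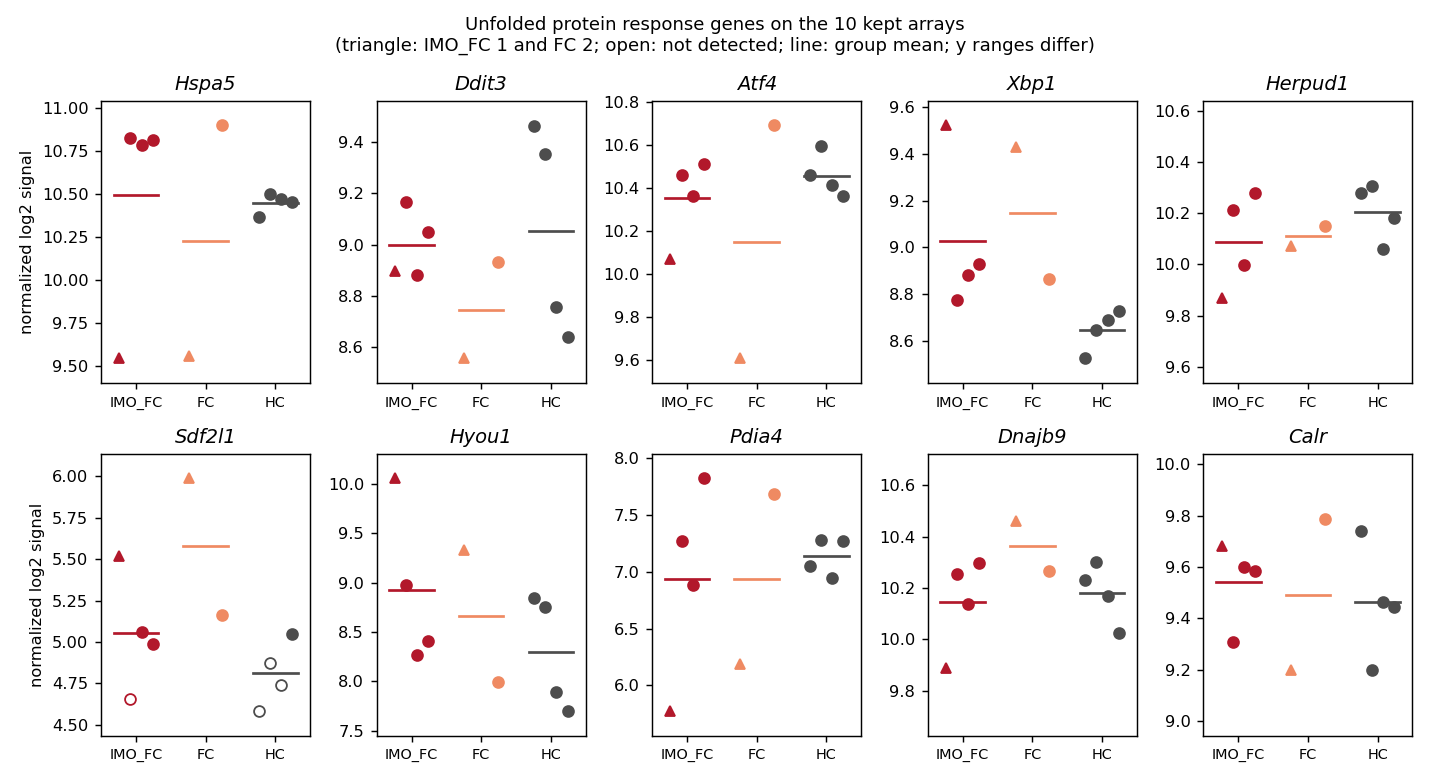
Normalized log2 signal (y axis, with a range of its own in each panel) of the 10 genes on the 10 kept arrays, by group, with each group's mean as a line, IMO_FC 1 and FC 2 as triangles and undetected values as open symbols. Xbp1 is the gene whose IMO_FC and FC points all lie above its HC points, and Hspa5 is near 9.55 on both triangles.

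The transcription factors come first. Xbp1, spliced by IRE1, was higher on every conditioned array than on any home-cage array. Its log2 signal was 9.52, 8.77, 8.88 and 8.93 on IMO_FC 1 to 4 and 9.43 and 8.86 on FC 2 and FC 4, against 8.52, 8.65, 8.69 and 8.73 on HC 1 to 4. No IMO_FC or FC array overlapped the HC arrays, and the highest 2 values were those of IMO_FC 1 and FC 2. The mean difference of IMO_FC from HC was 0.38 ± 0.23 (SE; 1.3-fold, 95% confidence interval 0.913 to 1.85; n = 4 each), with an exact two-sided permutation p of 0.0286, the smallest that 4 against 4 allows, and an adjusted p of 0.999 from limma.

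For FC against HC the Xbp1 difference was 0.50 ± 0.28 (SE; n = 2 and 4), with an exact p of 0.0667, the smallest possible here, and an adjusted p of 1.00 from limma. Without FC 2 it was 0.22 ± 0.35, and with all 12 arrays it turned to -0.38 ± 0.90. Between IMO_FC and FC it was -0.12 ± 0.28. Without IMO_FC 1 the IMO_FC values were still all above HC, and the difference was 0.21 ± 0.19. Probe sequences were not used here, so spliced and unspliced Xbp1 mRNA are not told apart.

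Groups without overlap occurred among other probes as well. In IMO_FC against HC, 1.19% of tested probes had every IMO_FC value above every HC value and 1.26% had every value below, and of the 10 genes 1 did so upward and 0 downward. Over the 6 conditioned arrays together, 0.383% of tested probes lay wholly above the 4 HC arrays and 0.408% wholly below. Xbp1 was the only one of the 10 to do either. In FC against HC these shares were 5.68% upward and 5.66% downward. There 2 of the 10 genes, Xbp1 and Sdf2l1, were above and 0 below by their brightest probes. In IMO_FC against FC they were 4.75% and 5.07%, with 0 of the 10 genes in each direction by their brightest probes. The dimmer Atf4 probe was wholly above HC in FC, and wholly below FC in IMO_FC.

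Atf4, the transcription factor made when PERK slows translation, has 2 tested probes that ran differently. Its bright probe read 10.07, 10.46, 10.36 and 10.51 on the IMO_FC arrays, 9.61 and 10.69 on FC 2 and FC 4, and 10.46, 10.59, 10.41 and 10.36 on the HC arrays. The groups overlapped on it, and IMO_FC differed from HC by -0.11 ± 0.25 (SE, n = 4 each), or by -0.01 ± 0.25 without IMO_FC 1. On the bright probe FC differed from HC by -0.31 ± 0.31 (n = 2 and 4). Its dim probe read 6.46, 6.23, 6.11 and 6.26 on the IMO_FC arrays and 6.82 and 6.51 on the FC arrays, against 5.69, 5.24, 6.49 and 5.40 on the HC arrays.

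On that dim probe of Atf4 the FC arrays were above all HC arrays, and the IMO_FC arrays were above 3 of the 4 HC arrays. The difference was 0.56 ± 0.28 for IMO_FC against HC (0.51 ± 0.29 without IMO_FC 1) and 0.96 ± 0.34 for FC against HC, with adjusted p of 0.999 and 1.00 from limma. For FC against HC the unadjusted limma p was 0.0171 and the exact permutation p 0.133. Which probe reports the Atf4 transcript better cannot be read from these files.

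Ddit3, which encodes the factor CHOP acting downstream of ATF4, was detected on every one of the 12 arrays by its bright probe. That probe ranged over 8.88 to 9.17 in IMO_FC and 8.56 to 8.93 in FC, against 8.64 to 9.46 in HC. The widest spread was in HC, where HC 1 and HC 2 were above all conditioned arrays and HC 3 and HC 4 below all IMO_FC arrays. The differences from HC were -0.06 ± 0.24 in IMO_FC (-0.02 ± 0.25 without IMO_FC 1) and -0.31 ± 0.30 in FC. A dimmer Ddit3 probe, undetected on IMO_FC 1, gave -0.05 ± 0.49 in IMO_FC and 0.29 ± 0.60 in FC. Without IMO_FC 1 its IMO_FC difference was 0.43 ± 0.35.

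**Figure D2:**
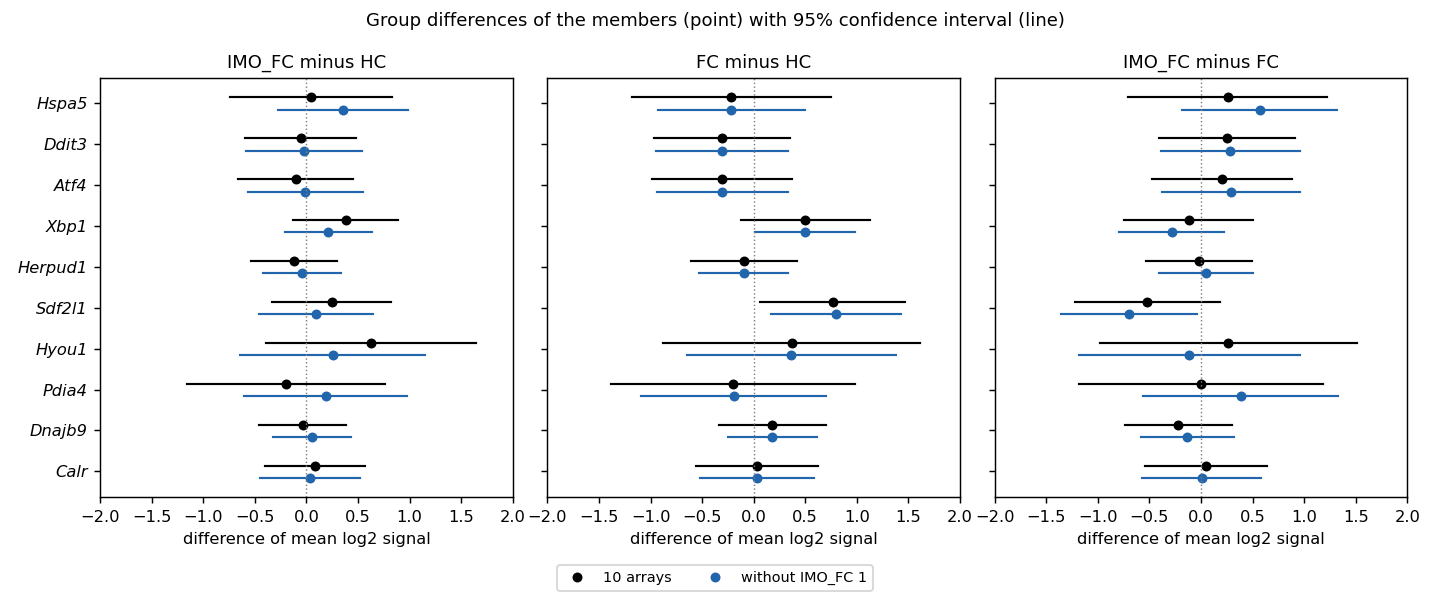
Difference of group means in log2 signal (x axis) for the 10 genes (rows), as a point with its 95% confidence interval, in IMO_FC minus HC, FC minus HC and IMO_FC minus FC, from all 10 kept arrays (black) and without IMO_FC 1 (blue). Of the black intervals only that of Sdf2l1 in FC minus HC, 0.06 to 1.47, leaves out 0, and its probe was detected on 1 of the 4 HC arrays.

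Next are the chaperones and folding enzymes. Hspa5 encodes BiP, the ER chaperone that also holds the stress sensors inactive. Its log2 signal was 9.55, 10.82, 10.78 and 10.81 on IMO_FC 1 to 4 and 9.56 and 10.90 on FC 2 and FC 4, against 10.37, 10.50, 10.47 and 10.45 on HC 1 to 4. IMO_FC 2, 3 and 4 and FC 4 were above every HC array, and IMO_FC 1 and FC 2 were below every HC array.

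With all 4 IMO_FC arrays, Hspa5 averaged 10.49 ± 0.63 in IMO_FC and 10.45 ± 0.06 in HC (SD, n = 4 each), a difference of 0.04 ± 0.36 (SE) with an exact permutation p of 1. Without IMO_FC 1 the difference was 0.36 ± 0.28 (SE; 1.28-fold, 95% confidence interval 0.828 to 1.98; n = 3 and 4), the groups did not overlap, and the exact p of 0.0286 was the smallest that 3 against 4 allows. Its adjusted p from limma was 1. IMO_FC 1 held the lowest Hspa5 value, so leaving it out raises the difference. In that setting 22986 probes were tested and 0 (0%) called, 3.35% lay wholly above HC and 2.58% wholly below, and of the 10 genes 2 lay above, Hspa5 and Xbp1, and 0 below.

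The 2 arrays with low Hspa5 are also the pair that stood furthest from the rest over all tested probes. On IMO_FC 1 excitatory neuron and astrocyte markers summed to the lowest levels of the 10 arrays (3287 and 6613). Microglia, blood, striatal neuron and endothelial markers summed to the highest there (2132, 1527, 2935 and 1387). Of 6 blood markers 3 were tested, and 2 were detected on all 10 arrays. On FC 2 oligodendrocyte markers summed to the lowest level of the 10 arrays (8162, against 9395 to 12774 in HC) and inhibitory neuron markers to the highest (10797, against 9155 to 10211 in HC), blood markers to 1057 against at most 978 in HC, and excitatory neuron markers to 6841, within the HC range. The part of these differences in the Hspa5 values was not tested.

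Pdia4, a disulfide isomerase of the ER, was low on the same arrays. It read 5.77, 7.27, 6.88 and 7.82 on IMO_FC 1 to 4, 6.19 and 7.68 on FC 2 and FC 4, and 7.05, 7.28, 6.94 and 7.27 on HC 1 to 4. The IMO_FC and FC arrays lay on both sides of the narrow HC range. The difference of IMO_FC from HC was -0.20 ± 0.44 with IMO_FC 1 and turned to 0.19 ± 0.35 without it.

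Hyou1, a large ER chaperone that works with BiP, went the other way on those arrays. It read 10.06, 8.98, 8.26 and 8.41 on IMO_FC 1 to 4, 9.33 and 8.0 on FC 2 and FC 4, and 8.84, 8.76, 7.89 and 7.70 on HC 1 to 4. IMO_FC 1 and FC 2 were its first and second highest arrays, and the groups overlapped. HC 1 and HC 2 were above HC 3 and HC 4, as on the bright Ddit3 probe, and the part of choroid plexus content was not tested. The difference of IMO_FC from HC was 0.63 ± 0.46 with IMO_FC 1 and 0.25 ± 0.40 without it.

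Sdf2l1, a small ER protein that assists BiP, was near the detection limit. Its probe was detected on 3 of 4 IMO_FC, 2 of 2 FC and 1 of 4 HC arrays. It read 5.52, 4.65, 5.06 and 4.99 on the IMO_FC arrays, 5.99 and 5.16 on the FC arrays, and 4.58, 4.88, 4.74 and 5.05 on the HC arrays.

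Both FC arrays were above all HC arrays for Sdf2l1. With 3 of the 4 HC arrays undetected, its HC level is mostly background, and the probe was tested only because of the conditioned arrays, which gave 5 of its 6 detections. The FC difference from HC was 0.76 ± 0.32 (SE, n = 2 and 4), with an unadjusted limma p of 0.0363, an adjusted p of 1.00 and an exact p of 0.0667, the smallest possible. Without FC 2 it was 0.36 ± 0.37, without background correction 0.42 ± 0.21 (unadjusted limma p 0.0648), and on the authors' normalized values 0.38 ± 0.19 (unadjusted limma p 0.0703). In IMO_FC against HC the difference was 0.24 ± 0.26, or 0.10 ± 0.25 without IMO_FC 1, and the groups overlapped.

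Dnajb9 encodes ERdj4, a co-chaperone of BiP. Its bright probe ranged over 9.89 to 10.30 in IMO_FC and 10.27 to 10.46 in FC, against 10.02 to 10.30 in HC. Its second probe ranged over 9.25 to 9.54 in IMO_FC and 9.30 to 9.57 in FC, against 9.42 to 9.47 in HC. Calr, the lectin chaperone calreticulin, ranged over 9.31 to 9.68 in IMO_FC and 9.20 to 9.79 in FC, against 9.20 to 9.74 in HC. The groups overlapped on all of these probes. Differences of IMO_FC from HC were -0.04 ± 0.19 for the bright Dnajb9 probe (0.05 ± 0.17 without IMO_FC 1), -0.03 ± 0.18 for its second probe (0.02 ± 0.16) and 0.08 ± 0.22 for Calr (0.04 ± 0.22). A second Calr probe was detected on 0 arrays and not tested.

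For degradation, Herpud1 ranged over 9.87 to 10.28 in IMO_FC and 10.07 to 10.15 in FC, against 10.06 to 10.30 in HC on its bright probe. The groups overlapped. Its IMO_FC difference from HC was -0.12 ± 0.19 on that probe and -0.32 ± 0.29 on its dimmer probe, which was lowest on IMO_FC 1 at 7.55. Without IMO_FC 1 these were -0.04 ± 0.17 and -0.06 ± 0.22.

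As a list, the 10 genes were split evenly between higher and lower. In IMO_FC against HC 5 were higher and 5 lower, with a median difference of 0.0035 beside -0.02 over the 11585 genes tested. In FC against HC 5 were higher and 5 lower, with a median of -0.03 beside -0.01, and in IMO_FC against FC again 5 and 5, with 0.03 beside -0.01. Without IMO_FC 1, 7 were higher and 3 lower in IMO_FC against HC, with a median of 0.07 beside 0.0019. The FC and IMO_FC comparisons with HC share the HC arrays.

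**Figure D3:**
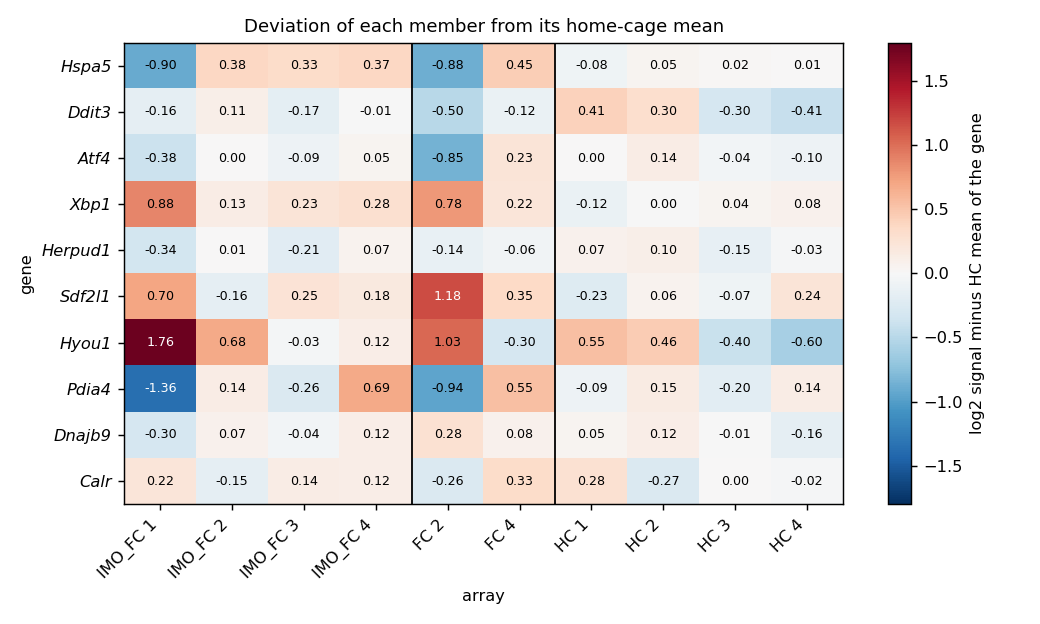
Log2 signal of the 10 genes (rows) on each of the 10 kept arrays (columns) minus the gene's HC mean, from red (higher) to blue (lower), with vertical lines between IMO_FC, FC and HC arrays. The IMO_FC 1 and FC 2 columns share low Hspa5, Atf4 and Pdia4 and high Xbp1, Sdf2l1 and Hyou1.

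Array by array, IMO_FC 4 had 9 of the 10 genes above their HC means, IMO_FC 2 had 8 and FC 4 had 7. IMO_FC 1, IMO_FC 3 and FC 2 each had 4. Among the HC arrays themselves the count ran from 3 to 8. IMO_FC 4 lay above the HC counts, with 1 gene more than HC 2, and the other conditioned arrays lay within them. Each HC array enters the mean it is counted against and the conditioned arrays do not, so the counts are not strictly alike.

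Across the 10 arrays the members did not follow Hspa5 in a body, and the closest likeness rested on 2 arrays. In 9 correlations with Hspa5, whose p-values are not adjusted, Pearson's r was 0.90 for Pdia4 and 0.85 for Atf4 (permutation p 0.0022 and 0.00447; Spearman's rho 0.74 and 0.76, permutation p 0.0181 and 0.0137). It was -0.74 for Xbp1, -0.72 for Hyou1 and -0.71 for Sdf2l1 (permutation p 0.022, 0.0197 and 0.0233), with rho of -0.13, -0.41 and -0.25 (permutation p 0.735, 0.246 and 0.493). The other 4 genes had r from 0.17 to 0.54, with permutation p from 0.112 to 0.644. Of all 11584 other tested genes, 5.64% had r over 0.8 with Hspa5 and 8.44% had r under -0.7.

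Without IMO_FC 1 and FC 2, the 2 arrays farthest from the Hspa5 median, r was 0.53 for Pdia4, 0.37 for Atf4, 0.87 for Xbp1, 0.04 for Hyou1 and 0.48 for Sdf2l1. The negative relations thus do not hold without those arrays, and that of Xbp1 turns positive. The median r of the 9 genes was 0.198 beside 0.043 over all other tested genes, and 0.36 beside -8.1e-04 without those arrays. Arrays within a group share their treatment, and all share the normalization.

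The tested genes whose values were most like those of Hspa5 over the 10 arrays were Sdf4 (r 0.98), Cfap298 (0.97), Copb2 (0.97), Camk2g (0.96) and Hnrnpa2b1 (0.96). None is a member of the 10. Over the 8 arrays left without IMO_FC 1 and FC 2 their r was 0.75 to 0.88. Those 8 arrays are among the 10 by which these genes were picked, so this is no separate check.

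**Figure D4:**
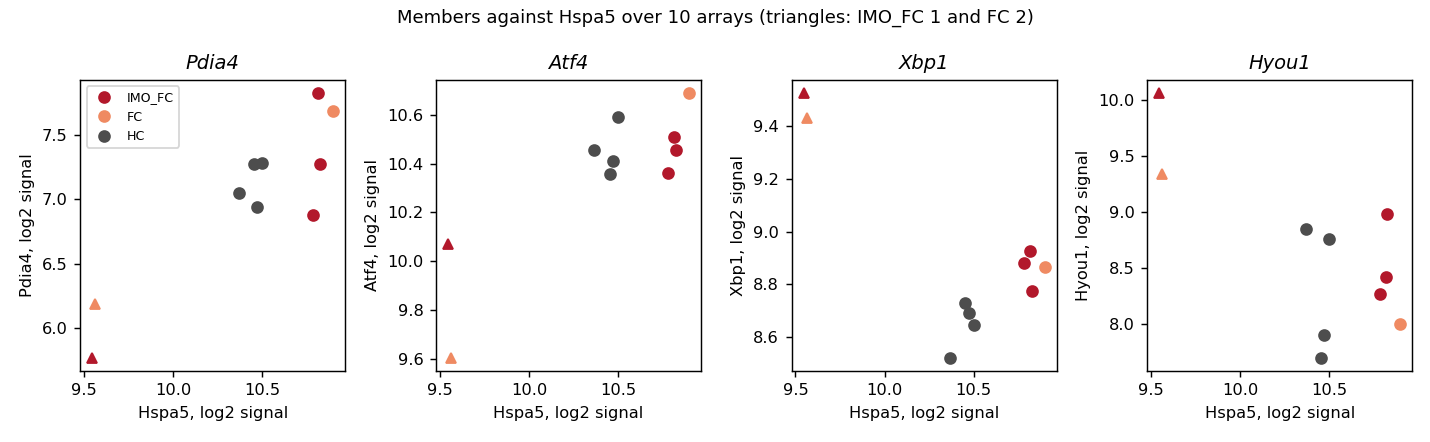
Log2 signal of Pdia4, Atf4, Xbp1 and Hyou1 (y axes) against that of Hspa5 (x axes) on the 10 kept arrays, coloured by group, with IMO_FC 1 and FC 2 as triangles. The triangles lie far to the left in all panels, low for Pdia4 and Atf4 and high for Xbp1 and Hyou1.

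With all 12 arrays in the fit the IMO_FC differences from HC stayed close, but their errors grew, for Hspa5 to 0.05 ± 1.05 and for Xbp1 to 0.38 ± 0.90. Probes under an unadjusted p of 0.05 in that comparison then numbered 94, and the comparisons with FC moved in size as well. FC 1 and FC 3 detected 5 of the 10 genes on neither array, 2 on 1 of them and 3 on both (Ddit3, Herpud1 and Calr). Hspa5 read 4.69 on FC 1 and 5.53 on FC 3, both undetected, against 9.33 and 10.73 on FC 2 and FC 4 in the same 12-array normalization. Xbp1 read 4.36 on FC 1, undetected, and 9.93 on FC 3.

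The 12-array difference of FC from HC was -2.69 ± 1.05 for Hspa5 and -2.53 ± 0.97 for Atf4, each with an adjusted p of 0.297 from limma, and 1.18 ± 0.45 for Sdf2l1 (adjusted p 0.297), whose signal was undetected on both added arrays. Here 2 of the 10 genes were higher and 8 lower in FC, with a median of -0.63 beside -0.34 over all genes tested. Low detection of all probes on FC 1 and FC 3 moves with these values, and its part in them was not tested.

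Around the 10 genes, 5 further lists of the pathway were read, and 0 of their genes were called in the 3 comparisons. Differences named for single genes of these lists include IMO_FC 1, and 17 of the 66 tested genes changed sign in IMO_FC against HC without it, Mbtps1 (-0.16 ± 0.35) and Mbtps2 (0.40 ± 0.43) among them. Of 8 tested sensor and activation genes 3 were higher and 5 lower in IMO_FC against HC, with a median of -0.02. In FC against HC, which holds 2 FC arrays, 7 were higher and 1 lower, with a median of 0.23. Over all genes tested, 48.8% were higher there, with a median of -0.01. Without IMO_FC 1 and FC 2 the sensor genes were 5 higher and 3 lower (median 0.20), and with all 12 arrays 4 and 4 (median 0.22). The gene of PERK was not among these 8. Ern1, the gene of IRE1, differed from HC by -0.01 ± 0.38 in IMO_FC, and Atf6 by 0.27 ± 0.46. Atf6 was detected on 5 of the 10 arrays, and read 6.68 on IMO_FC 3 and 4.44, 4.63 and 4.97 on IMO_FC 1, 2 and 4. Atf6b, the relative of Atf6, gave -0.23 ± 0.27. The proteases that cut ATF6, Mbtps1 and Mbtps2, gave 0.16 ± 0.41 and -0.03 ± 0.51.

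Creb3l2, a membrane-held transcription factor of the ATF6 kind, read 5.91, 6.35, 6.38 and 6.26 on the IMO_FC arrays and 7.22 and 5.83 on the FC arrays, against 5.23, 5.90, 5.32 and 5.05 on the HC arrays. All IMO_FC arrays were above all HC arrays, IMO_FC 1 by the second decimal only. The IMO_FC difference was 0.85 ± 0.32, with an exact permutation p of 0.0286 and an adjusted p of 0.999 from limma. Creb3l1 gave -0.17 ± 0.37, and Rtcb, the ligase that joins cut Xbp1 mRNA, -0.08 ± 0.20.

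Of 12 tested ATF4 targets 7 were higher and 5 lower in IMO_FC against HC, with a median of 0.06. Chac1, which degrades glutathione, gave 0.93 ± 0.43, and 0.70 ± 0.44 without IMO_FC 1, its highest array at 7.62. Its groups overlapped, with HC 1 at 7.22. Asns, asparagine synthetase, gave -0.21 ± 0.21, Ppp1r15a, the phosphatase subunit GADD34, 0.12 ± 0.23, and Sesn2, a stress-induced regulator of growth signalling, -0.02 ± 0.29.

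Of 18 tested other folding genes 9 were higher and 9 lower in IMO_FC against HC, with a median of 0.0096. Without IMO_FC 1 there were 12 and 6, with a median of 0.13 beside 0.0019 over all genes tested, of which 50.3% were higher. Hsp90b1 gave 0.05 ± 0.27, Canx 0.09 ± 0.20, Pdia3 -0.13 ± 0.20 and Pdia5 -0.32 ± 0.29 with IMO_FC 1. Of 13 tested degradation genes 5 were higher and 8 lower, with a median of -0.03. There Sel1l and Syvn1, the core of the ER ubiquitin ligase, gave -0.11 ± 0.23 and -0.01 ± 0.34, and the mannosidase-like Edem1 and Edem2 -0.39 ± 0.33 and -0.20 ± 0.38.

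Of 15 tested translocation and traffic genes 7 were higher and 8 lower, with a median of -0.06. Sec61b, a subunit of the channel through which proteins enter the ER, read 6.20, 5.93, 5.89 and 5.88 in IMO_FC and 5.34 and 5.75 in FC, against 5.59, 5.27, 5.0 and 5.74 in HC. Its IMO_FC arrays were above all FC and HC arrays, and the difference from HC was 0.57 ± 0.23 (exact permutation p 0.0286, adjusted p 0.999 from limma). The channel subunits Sec61a1 and Sec61g gave -0.08 ± 0.33 and 0.11 ± 0.24, and Ssr1, of the channel's partner complex, 0.23 ± 0.22.

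**Figure D5:**
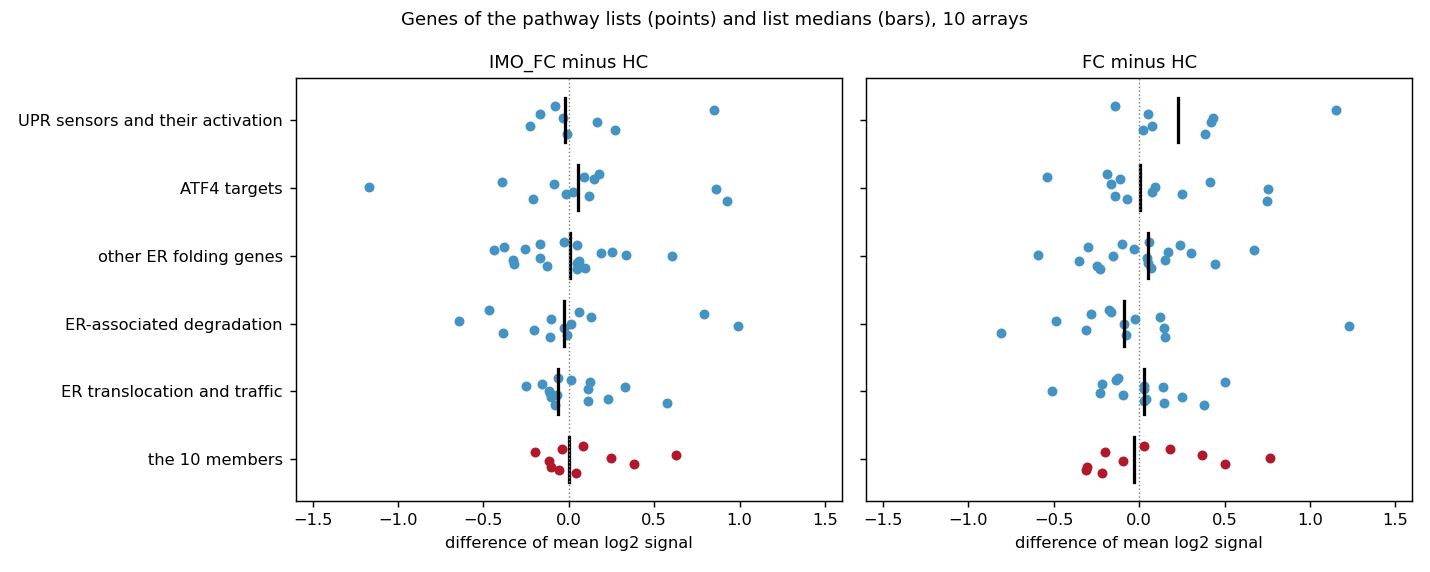
Difference of mean log2 signal (x axis) of each tested gene of the 5 pathway lists (blue points) and of the 10 genes (red points), with the list's median as a bar, for IMO_FC minus HC and FC minus HC on the 10 kept arrays. The medians lie between -0.09 and 0.23, with single genes on both sides of 0 in each list.

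Read by promoter, 37 genes hold the ER stress response element in a window and 15 of them were tested. In IMO_FC against HC 10 were higher and 5 lower, with a median of 0.05 beside -0.02 over all genes tested, of which 47% were higher. Without IMO_FC 1, 9 were higher and 6 lower, with a median of 0.15 beside 0.0019. In FC against HC 6 were higher and 9 lower, with a median of -0.07 beside -0.01 over all genes tested, of which 48.8% were higher. In IMO_FC against FC 11 were higher and 4 lower, with a median of 0.26 beside -0.01 over all genes tested, of which 48.4% were higher. Without IMO_FC 1 there were 10 and 5, with a median of 0.24 beside 0.01. The comparison of IMO_FC with FC holds 2 FC arrays, and these genes were not read without FC 2. Of the genes whose elements are printed above, Pdia6 differed between IMO_FC and HC by 0.05 ± 0.42, and by 0.45 ± 0.33 without IMO_FC 1, and 0 of the 15 were called in any comparison.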

How the data were processed

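Per the file headers, the authors deposited a non-normalized bead signal intensity and a detection p-value per probe and array for 45281 probes; a second deposited table holds normalized intensity, linear in scale and of unstated method, and served as an alternative. Per the labels' protocols, RNA was purified with an RNeasy kit and labelled with the Ambion MessageAmp kit. The software that summarised the beads is not given in the sources used here. Value columns left unused numbered 0.

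Signals were corrected with limma's neqc (background inferred from the detection p-values, offset 16), quantile normalized and log2 transformed. Arrays with under 25% of probes detected at p under 0.05, FC 1 and FC 3, were left out of the main values, and probes detected on at least 4 of the 10 remaining arrays were tested, 23260 in all. A probe was named through the platform annotation: 34885 probes had 1 gene symbol, 18 several and 10378 none. A single limma model (lmFit, eBayes) with a mean per group gave differences, standard errors and p-values, with Benjamini-Hochberg adjustment across the tested probes. Exact two-sided permutation tests compared means of single probes over 70 arrangements of 4 against 4, 35 of 3 against 4 and 15 of 2 against 4; they are not adjusted. Correlation p-values came from 100000 permutations.

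The 10 genes, the pathway and marker lists and the settings were chosen with earlier results of these data known, so no p was adjusted over a list alone. Named beside the 10 genes were every tested sensor gene, the first 4 tested genes of each other pathway list in list order, the 5 genes most like Hspa5, and Pdia6 for its promoter element, chosen after its values were seen. No array pair of 66 held identical signals.

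The limma fit with its adjustment was tested on simulated data for 23260 probes, with values drawn independently for each probe and array. Background correction, normalization, the detection filter, the permutation tests and the correlations were not part of it. No simulated array stood apart from the others as IMO_FC 1 does. Of 100 probes changed 2-fold the fit called 8%, 2% and 1%, and of 100 changed 4-fold 67%, 35% and 24%, in IMO_FC against HC, FC against HC and IMO_FC against FC. Other settings are given in the closing section. R 4.3.3 and limma 3.58.1 were used.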

Additional observations from a re-analysis of the deposited data

Results flagged for a closer look

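Among 28 sets of 4 arrays checked (the IMO_FC and HC values of each tested probe of the 10 genes), 1 held an array far from the other 3. Hspa5 on IMO_FC 1 had a log2 signal of 9.55, and the nearest other IMO_FC array had 10.78, a gap of 0.967 of the group's whole range, above Dixon's 95% critical value. Chance alone marks about 5% of such sets, or about 1 in 20. Excitatory neuron markers were also lowest on that array, and their part in the Hspa5 value was not tested.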

How the results depend on the processing

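Over 22 other settings for each of 30 differences (10 genes in 3 comparisons), 654 values were computed and 0 were called, the lowest adjusted p from limma being 0.297. Of these, 637 moved by less than the spread between arrays and 17 by more, 14 of the latter with all 12 arrays; 62 changed sign, 10 of them with all 12 arrays. The count of called probes stayed at 0 except with no detection filter, where limma called 2 probes in FC against HC and 3 in IMO_FC against FC (0 of them members). The median of the 10 genes in IMO_FC against HC was 0.11 with array weights. With all 12 arrays it was -0.63 in FC against HC and 0.80 in IMO_FC against FC, and without IMO_FC 1 and FC 2 it was 0.22 in FC against HC. With each array left out in turn, the median ran from -0.07 to 0.07 in IMO_FC against HC, from -0.20 (without FC 4) to 0.23 (without FC 2) in FC against HC and from -0.12 to 0.18 in IMO_FC against FC. With 1 FC array left, it is assumed to vary like the other groups. The count of called probes was 0 in each of these fits. With 1 array left out, the median r of the other 9 genes with Hspa5 ran from 0.074 to 0.308, and without both IMO_FC 1 and FC 2 it was 0.36.

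Same-numbered arrays of different groups had correlations of their deviations from the group means of -0.14 to 0.19 in 8 pairs, 2 of them over 0.1, so the numbers were not taken to pair samples. With the replicate number as a block (the replicate block), 0 probes were called in each comparison, and the medians were 0.0035, -0.03 and 0.09 in IMO_FC against HC, FC against HC and IMO_FC against FC. The slide could not be fitted as a block because the files name no slide. In simulated data with independent values on each array, 1% to 8% of 2-fold changes were called. In such data changes of the sizes reported for the 10 genes could seldom be called at this depth of replication.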

Other observations

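Of the 66 tested genes of the 5 pathway lists, 4 were wholly above HC in IMO_FC (Creb3l2, Sec61b, Manf and Ero1a) and 1 wholly below (Txndc5). Over all tested probes these shares were 1.19% and 1.26%. In FC against HC 8 were wholly above and 5 wholly below (5.68% and 5.66% of all tested probes). In IMO_FC against FC there were 3 and 6 (4.75% and 5.07% of all tested probes). Those of IMO_FC against HC that have not been described are given here, chosen after their values were seen, and 0 of them were called.

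Manf, a secreted ER stress-responsive neurotrophic factor, read 7.38, 7.82, 8.17 and 7.61 on the IMO_FC arrays and 6.49 and 7.48 on the FC arrays, against 7.05, 7.17, 6.99 and 7.35 on the HC arrays. The IMO_FC difference from HC was 0.61 ± 0.27 (SE), and 0.72 ± 0.26 without IMO_FC 1, with adjusted p of 0.999 and 1 from limma. Ero1a, an oxidase that recharges disulfide isomerases, differed by 0.26 ± 0.19. Txndc5, a disulfide isomerase, read 7.17, 6.73, 6.92 and 7.11 in IMO_FC and 6.97 and 7.16 in FC, against 7.41, 7.43, 7.40 and 7.23 in HC. Its differences from HC were -0.38 ± 0.19 in IMO_FC and -0.30 ± 0.23 in FC.

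Among the 3 genes wholly above FC in IMO_FC, Creld2, an ER folding factor whose promoter holds the ER stress response element, differed by 0.93 ± 0.28 (unadjusted p 0.00727 and adjusted p 1 from limma). Dnajc3 and Ero1b, of the 6 genes wholly below FC, hold the same element and differed by -0.48 ± 0.34 and -1.11 ± 0.64. Without IMO_FC 1 Creld2 differed by 0.85 ± 0.27, Dnajc3 by -0.20 ± 0.20 and Ero1b by -0.49 ± 0.30. FC is 2 arrays here, and the smallest possible exact p is 0.0667. On the 8 arrays left without IMO_FC 1 and FC 2, a setting also chosen after the values were seen, the genes most like Hspa5 were Rbak, Ndufaf4, Tsc22d3, Hyal1 and Snrnp48 (r 0.93 to 0.96). Over the 10 arrays their r ran from 0.02 for Rbak to 0.91 for Ndufaf4.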
